A study of Mus musculus with 8 samples.

Results

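The 10 genes described here belong to the amino acid stress response that ATF4 directs, and their mRNA was measured by RNA sequencing of mouse embryonic stem cells. They are Atf4 itself, Ddit3, Trib3, Chac1, Sesn2, Asns, Psat1, Phgdh, Slc7a11 and Slc7a5. They were picked by name as a check of the state of the cultures, and all 10 were found among the 47729 genes of the count files. The study compared 4 groups of E14TG2a cells of strain 129/Ola, with 2 libraries each. QT7 and QT7L1 are titled for QKO cells given back a single copy of TCF7 or of TCF7L1. QKO cells carry TCF7(-/-), TCF7L1(-/-), TCF7L2(-/-) and LEF1(-/-) and so lack every full-length member of the TCF/LEF family, the DNA-binding partners of beta-catenin. WT cells are unmodified E14TG2a. All groups were grown for 48 h in serum (15%) with LIF. The genotype tags go against the titles: they give TCF7L1(+/-) for QT7 and TCF7(+/-) for QT7L1, each with the other 3 factors at (-/-), and the groups are named here by title. Replicates 1 and 2 are clone A and clone B of each engineered line, and 2 biological replicates for WT, so in the engineered lines a difference between clones and a difference between cultures cannot be told apart.

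ATF4 is a basic leucine zipper transcription factor whose mRNA is translated best when general translation is held back. Amino acid shortage, endoplasmic reticulum stress, viral RNA and haem shortage each activate a kinase that phosphorylates the translation factor eIF2alpha, and this favours ATF4 protein. ATF4, often paired with a C/EBP protein, then binds C/EBP-ATF response elements and raises genes that import and make amino acids. If stress lasts, it also raises genes that shut the response down or favour cell death. The level of Atf4 mRNA therefore says little about ATF4 protein, and the mRNA of its targets is the usual readout.

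The response element was sought as TGATGNAA on both strands of RefSeq promoter windows (GRCm38.p6) that run from 250 bases before to 50 bases after the annotated start. Of the 10 genes, 9 had a window and Slc7a5 had none. The motif was present in the windows of Trib3, Chac1, Asns and Slc7a11, 4 of 9, and in those of 4.51% of the 27025 genes in the table (3.97% of its 32851 windows). Slc7a11 held 2 matches, at -66 to -59 and at -47 to -40 from its start, and 0.07% of all windows held 2 or more. The stretches of 3 expressed genes are shown with the match in capitals, 5′ to 3′ on the strand of the gene, to let the match be seen in its context.
Chac1, chr2:119350992-119351091, plus strand: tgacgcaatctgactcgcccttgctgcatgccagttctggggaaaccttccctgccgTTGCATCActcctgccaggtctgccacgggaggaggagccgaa
Asns, chr6:7693214-7693243, minus strand: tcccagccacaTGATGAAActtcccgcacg
Trib3, chr2:152344027-152344056, minus strand: tagctcaggtTTACATCAgccgggcgggga
The match lies at -193 to -186 in Chac1, at -23 to -16 in Asns and at 15 to 22 past the start in Trib3. These positions count from the RefSeq start, which differs from the start in the GENCODE gene coordinates given below. By the GENCODE coordinates the Asns match lies inside the gene and the Trib3 match before its start. In Chac1 and Trib3 the match is on the opposite strand, so that it reads as TTNCATCA. A match describes the letters of a window and not binding, and the windows of the other genes say nothing of elements outside them.

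The libraries held 31573536 to 43362627 counts. Levels are given as CPM, counts scaled to a common library size, after TMM scaling, which adjusts each library for its composition, and levels of different genes are compared per kilobase of exon (CPM per kb). Gene differences come from 1 edgeR quasi-likelihood fit over all 8 libraries, with p-values adjusted by Benjamini-Hochberg over the 16515 genes that passed a filter on low counts. A gene is called where the adjusted p is under 0.05. With 2 libraries a group, p-values measure only the spread between these libraries. As a check of the labels, Tcf7 had 16.6 and 20.9 CPM in QT7, 10.1 and 12.7 CPM in QT7L1, 7.97 and 19.7 CPM in QKO, and 59.6 and 61.9 CPM in WT. Tcf7l1 had 27.4 and 22.4 CPM in QT7, 36.9 and 27.5 CPM in QT7L1, 38.3 and 39.1 CPM in QKO, and 73.6 and 68.8 CPM in WT. Tcf7l2 was at 4.72 to 8.14 CPM in all 8 libraries, and Lef1 at 2.4 to 6.57 CPM in WT and at 0.212 to 1.33 CPM in the others. Counts over a whole gene do not show whether its product is full length, and they do not settle which factor each rescued line carries. The 8 embryonic stem cell markers summed to 5870 to 6970 CPM in every library. Single markers differed in QKO against WT: Nanog at 1.00 and Pou5f1 at 0.39 (log2) were called higher, and Tdgf1 at -0.52 and Sox2 at -0.28 lower. The sum of 11 markers of differentiated cells varied more. It was 64.4 and 50.8 CPM in QT7, 46.4 and 47.6 CPM in QT7L1, 37.4 and 44.0 CPM in QKO, and 61.4 and 91.9 CPM in WT.

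All of the genes but Slc7a11 were expressed in every library, at levels that differed widely per length. The order over the 8 libraries ran from Asns with a mean of 179 CPM per kb through Slc7a5 with 141, Atf4 with 122, Psat1 with 106, Phgdh with 77.9 and Sesn2 with 51.7 to Trib3 with 19.7, Chac1 with 11.4 and Ddit3 with 7.96. The amino acid enzymes, the transporter Slc7a5 and Atf4 thus stood above the regulators of later stress. Slc7a11 was at the bottom with 0.0158 CPM per kb and failed the count filter, so 9 of the 10 genes were tested. Over single libraries, neighbours in this order overlapped except at 2 steps, from Sesn2 to Trib3 and from Ddit3 to Slc7a11.

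**Figure D1:**
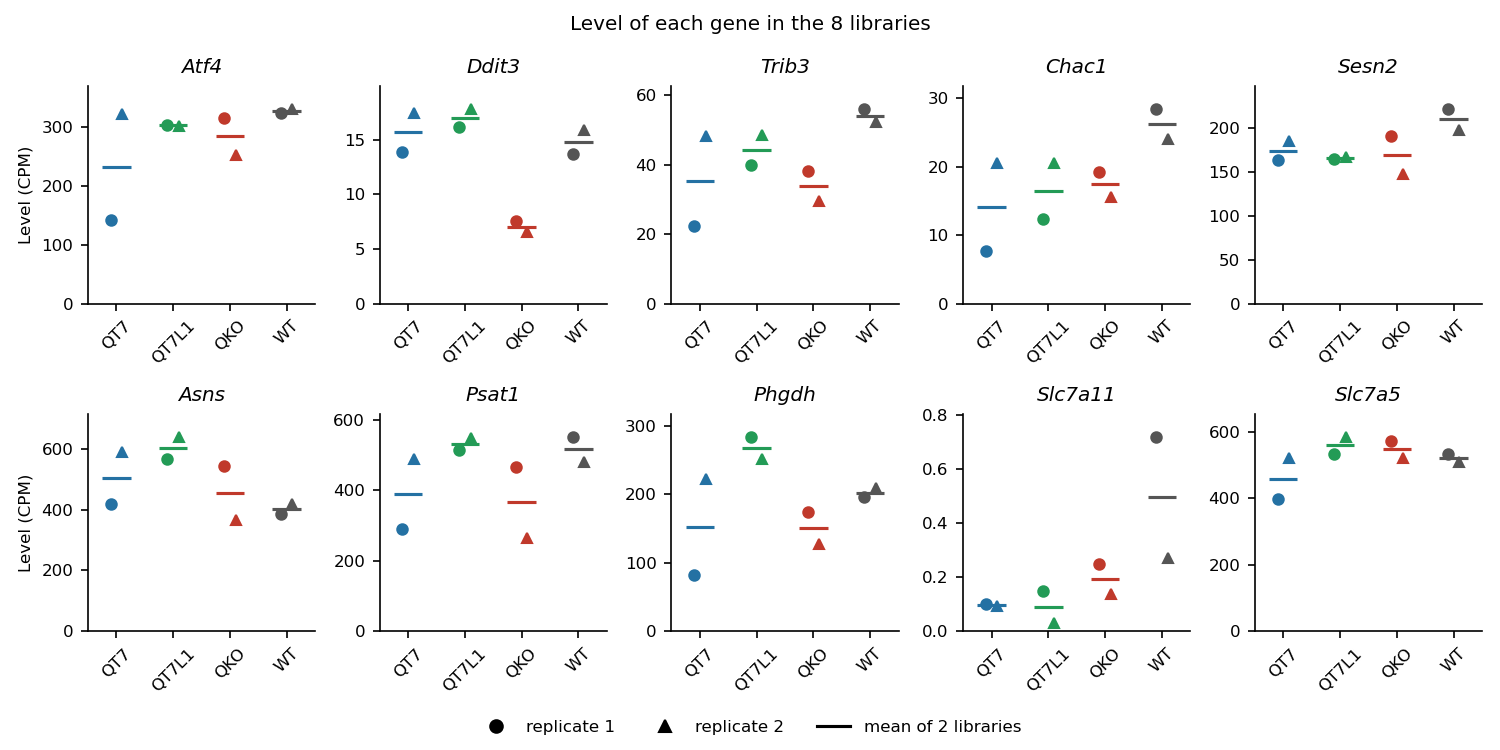
Levels in CPM (vertical axes, each from 0) of the 10 genes in QT7, QT7L1, QKO and WT. Circles are replicate 1, triangles replicate 2 and bars the mean of 2 libraries; Ddit3 is low in both QKO libraries, and Atf4, Trib3, Chac1 and Phgdh are far apart between the 2 QT7 libraries.

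Ddit3 was the single gene of the 9 whose level differed between groups by the test. In QKO against WT, 1 of the 9 was called against 26.4% of all tested genes, in QT7 against QKO 1 against 26.9%, and in QT7L1 against QKO 1 against 29.7%, and the call was Ddit3 each time. Ddit3 (ENSMUSG00000025408, chr10:127290774-127296288, plus strand, GRCm38) encodes CHOP, a C/EBP-family factor that ATF4 raises and that favours cell death in lasting endoplasmic reticulum stress. It had 13.9 and 17.5 CPM in QT7, 16.2 and 17.8 CPM in QT7L1, 7.57 and 6.51 CPM in QKO, and 13.7 and 15.9 CPM in WT. Both QKO libraries were below the other 6, QT7 overlapped QT7L1 and WT, and QT7L1 lay just above WT. Ddit3 averaged 7.04 ± 0.747 CPM in QKO and 14.8 ± 1.55 CPM in WT (SD, n = 2 each), a log2 fold change of -1.07 ± 0.18 (SE; edgeR adjusted p = 0.00352). It averaged 15.7 ± 2.58 CPM in QT7, higher than QKO by 1.16 ± 0.18 on the log2 scale (SE; edgeR adjusted p = 0.00234). In QT7L1 it averaged 17.0 ± 1.14 CPM, higher than QKO by 1.27 ± 0.18 on the log2 scale (SE; edgeR adjusted p = 0.00143). These 3 comparisons share the QKO libraries. Between each rescued line and WT no difference was called: 0.09 on the log2 scale for QT7 (95% interval -0.31 to 0.48, edgeR adjusted p = 0.84) and 0.20 for QT7L1 (-0.19 to 0.60, adjusted p = 0.638). The calls against QKO held under every alternative and with each library left out, with log2 fold changes from -1.19 to -0.96 for QKO against WT.

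A low Ddit3 in both QKO libraries was not uncommon among all genes. In QKO against WT, 1 of the 9 genes was called lower against 14.7% of all tested genes. In QT7 and QT7L1 against QKO, 1 of 9 was called higher in each, against 14.8% and 15.9% of all tested genes. Both QKO libraries were below the other 6 for 21.5% of all genes. The authors' deposited tables likewise give Ddit3 as the 1 gene of the 10 with an adjusted p under 0.05, in the tables of QKO with QT7, with QT7L1 and with WT. Exons of Ddit3 overlap those of Mars, the methionyl-tRNA synthetase gene on the opposite strand, by 68 bases. The strand setting of the counting is not given in the sources used here, and Mars had 7955 to 12919 counts a library, against 235 to 762 for Ddit3.

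**Figure D2:**
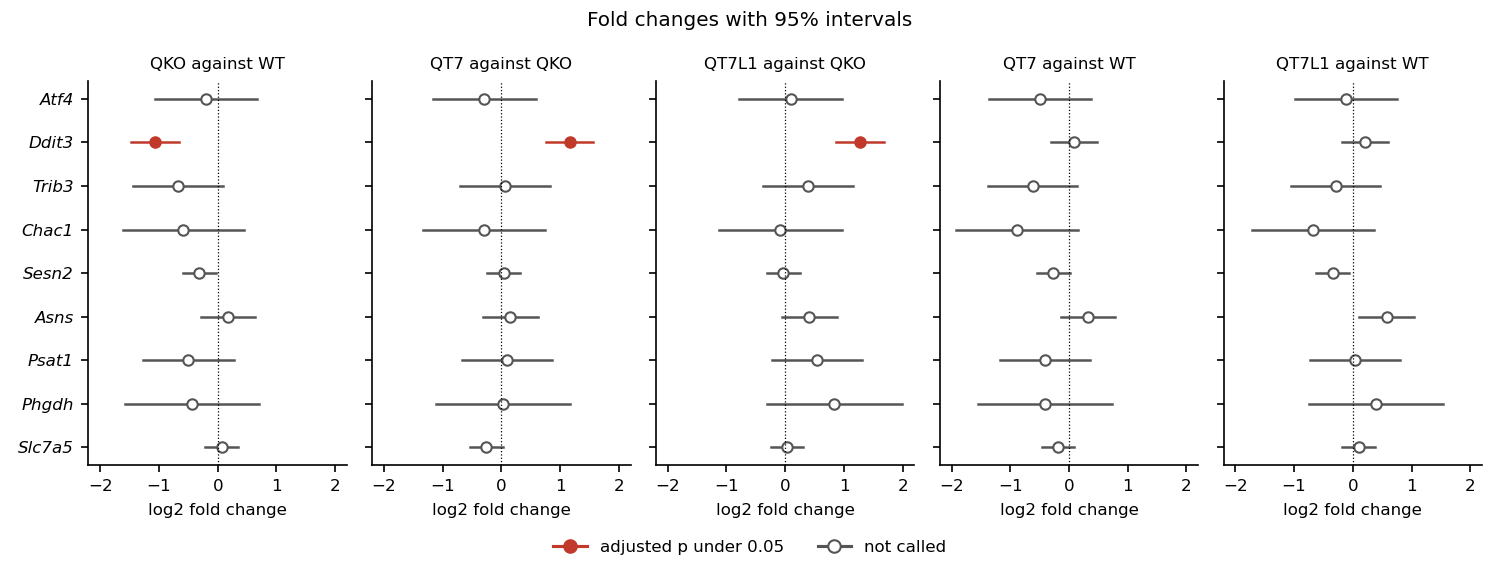
Fitted log2 fold changes of the 9 tested genes (points) with 95% intervals (lines) in 5 comparisons, each named first group against second. Filled red points are called at an adjusted p under 0.05; they are Ddit3 in the 3 comparisons that involve QKO, and the other 8 genes are open in all panels.

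Atf4 (ENSMUSG00000042406, chr15:80255184-80257541, plus strand), the factor itself, had 142 and 323 CPM in QT7, 305 and 303 CPM in QT7L1, 317 and 253 CPM in QKO, and 324 and 331 CPM in WT. QT7 replicate 1 was far below the other 7 libraries, which lay closer together. Atf4 was at -0.20 ± 0.36 on the log2 scale in QKO against WT (SE; 95% interval -1.07 to 0.67, edgeR adjusted p = 0.717). The 95% intervals of QT7 and of QT7L1 against QKO ran from -1.16 to 0.58 and from -0.78 to 0.96. No call was made for Atf4 in any of the 6 pairs of groups.

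Trib3 and Chac1 are sensitive readouts of the pathway. Trib3 (ENSMUSG00000032715, chr2:152337422-152344032, minus strand) encodes a pseudokinase that ATF4 and CHOP raise and that feeds back on ATF4. It had 22.2 and 48.1 CPM in QT7, 40.0 and 48.5 CPM in QT7L1, 38.2 and 29.5 CPM in QKO, and 55.9 and 52.3 CPM in WT. Both WT libraries were the highest of the 8 and QT7 replicate 1 the lowest. Trib3 averaged 33.9 ± 6.16 CPM in QKO and 54.1 ± 2.49 CPM in WT, a log2 fold change of -0.68 ± 0.33 (SE, n = 2 each) that was not called (edgeR adjusted p = 0.169). That comparison was called by DESeq2's Wald test (-0.66, adjusted p = 0.0329). With edgeR it was called with the compared groups alone (adjusted p = 0.00608) and without the count filter (adjusted p = 6.37e-05). It was not called with DESeq2 size factors or a replicate block. The log2 fold change was -0.68 without either QT7 library. The QT7 libraries enter that comparison through the shared estimate of the spread.

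Chac1 (ENSMUSG00000027313, chr2:119351229-119354381, plus strand) encodes an enzyme that breaks down glutathione. It had 7.71 and 20.6 CPM in QT7, 12.4 and 20.5 CPM in QT7L1, 19.3 and 15.6 CPM in QKO, and 28.4 and 24.1 CPM in WT. As for Trib3, the WT libraries were highest and QT7 replicate 1 lowest. The log2 fold change was -0.89 ± 0.44 in QT7 against WT (SE; edgeR adjusted p = 0.322), -0.67 ± 0.44 in QT7L1 against WT (adjusted p = 0.524) and -0.59 ± 0.44 in QKO against WT (adjusted p = 0.365). None of the 3 was called in this fit, and they share the WT libraries. Without the count filter all 3 were called (edgeR adjusted p = 0.000127, 0.0127 and 0.0112 in that order). With the compared groups alone QKO against WT was called (-0.59, edgeR adjusted p = 0.0185).

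Sesn2 (ENSMUSG00000028893, chr4:132492032-132510501, minus strand) encodes a leucine sensor that restrains the growth kinase mTORC1 and is raised by ATF4, p53 and NRF2. It had 163 and 185 CPM in QT7, 164 and 167 CPM in QT7L1, 191 and 147 CPM in QKO, and 221 and 198 CPM in WT. The WT libraries were again the highest pair, by a small margin. Sesn2 averaged 169 ± 30.7 CPM in QKO and 210 ± 16.2 CPM in WT, a log2 fold change of -0.31 ± 0.13 (SE, n = 2 each; edgeR adjusted p = 0.0971). It was called in that comparison without QKO replicate 1, at -0.52 (adjusted p = 0.0359).

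The enzymes that make amino acids did not share 1 order of groups. Asns (ENSMUSG00000029752, chr6:7675169-7693254, minus strand), asparagine synthetase, had 419 and 588 CPM in QT7, 566 and 638 CPM in QT7L1, 543 and 365 CPM in QKO, and 386 and 418 CPM in WT. QT7L1 was above WT without overlap, and the 2 QKO libraries lay on either side of the WT pair. Asns averaged 602 ± 50.9 CPM in QT7L1 and 402 ± 22.9 CPM in WT, a log2 fold change of 0.58 ± 0.21 (SE, n = 2 each; edgeR adjusted p = 0.234). The 95% interval of that difference, 0.11 to 1.05, left out 0, but the p-value did not pass after adjustment over all genes. DESeq2's Wald test called it (0.58, adjusted p = 0.0381).

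Phgdh and Psat1 encode the enzymes of the opening steps of serine synthesis from a glycolytic intermediate. Phgdh (ENSMUSG00000053398, chr3:98313170-98339990, minus strand) had 82.0 and 223 CPM in QT7, 284 and 252 CPM in QT7L1, 174 and 127 CPM in QKO, and 196 and 209 CPM in WT. QT7L1 was the highest group, above QKO without overlap, and QT7 spanned most of the range. Phgdh averaged 268 ± 22.3 CPM in QT7L1 and 151 ± 33.4 CPM in QKO, a log2 fold change of 0.83 ± 0.46 (SE, n = 2 each; edgeR adjusted p = 0.229). It was called there without either QT7 library (0.84, adjusted p = 0.00148 without replicate 1 and 0.00156 without replicate 2).

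Psat1 (ENSMUSG00000024640, chr19:15904678-15947337, minus strand) had 290 and 489 CPM in QT7, 514 and 549 CPM in QT7L1, 465 and 266 CPM in QKO, and 551 and 481 CPM in WT. QT7 replicate 1 and QKO replicate 2 were low, and the other 6 libraries lay close to each other. The log2 fold change was 0.54 ± 0.32 in QT7L1 against QKO (SE; edgeR adjusted p = 0.251) and -0.50 ± 0.32 in QKO against WT (adjusted p = 0.298).

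Of the transporters, Slc7a5 (ENSMUSG00000040010, chr8:121881150-121907694, minus strand), the LAT1 light chain that imports large neutral amino acids, varied least of the 9, by 1.47-fold from its lowest to its highest library. It had 397 and 521 CPM in QT7, 535 and 585 CPM in QT7L1, 573 and 523 CPM in QKO, and 535 and 509 CPM in WT. Only QT7 replicate 1 stood below the rest. The log2 fold change was -0.26 ± 0.13 in QT7 against QKO (SE; edgeR adjusted p = 0.157) and 0.07 ± 0.13 in QKO against WT (95% interval -0.21 to 0.35, adjusted p = 0.71). Slc7a11 (ENSMUSG00000027737, chr3:49892526-50443614, minus strand), the cystine importer xCT, had 4 and 4 counts in QT7, 5 and 1 in QT7L1, 8 and 5 in QKO, and 23 and 12 in WT. At so few counts the order of the groups is a description of these libraries, and no fold is given.

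In the 3 comparisons without QKO none of the 9 genes was called. In QT7 against WT, 0 of 9 were called by edgeR, against 4.62% of all tested genes (2.25% lower). At an unadjusted p under 0.05 there were 0 of 9 against 20.2% of all genes, and by DESeq2 0 against 7.9%. In QT7L1 against WT, 0 were called, against 0.745% of all tested genes (0.448% lower). An unadjusted p under 0.05 was reached by 2 (Asns and Sesn2) against 15.4% of all genes, and DESeq2 called 1 (Asns) against 4.0%. In QT7 against QT7L1, which sets the rescued lines against each other directly, 0 were called, against 0.00606% of all tested genes. An unadjusted p under 0.05 was reached by 1 (Slc7a5) against 11.1% of all genes, and DESeq2 called 0 against 1.41%. The median log2 fold change of the 9 genes was -0.43 in QKO against WT, against -0.01 for all tested genes. It was 0.04 against 0.05 in QT7 against QKO, and 0.39 against 0.02 in QT7L1 against QKO. Libraries of QKO and WT did not overlap for 7 of the 9 genes, and for 69.4% of all tested genes. The same count was 2 of 9 against 63.2% in QT7 against QKO, 5 of 9 against 71.0% in QT7L1 against QKO, 5 of 9 against 47.6% in QT7 against WT, 8 of 9 against 50.7% in QT7L1 against WT and 3 of 9 against 40.8% in QT7 against QT7L1.

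The 9 genes also differed between the 2 libraries of QT7 and of QKO. In QT7, all 9 genes were lower in replicate 1 than in replicate 2. The median difference of the 9 genes was -0.76 (log2 CPM), while the middle of all tested genes, from the lower to the upper quartile, ran from -0.25 to 0.24. Phgdh at -1.45, Chac1 at -1.41, Atf4 at -1.18 and Trib3 at -1.11 differed by more than 2-fold, as did 3.85% of all tested genes in that direction. In QKO the 9 genes went the other way between libraries. All were higher in replicate 1, with a median of 0.37, while the quartiles of all genes were at -0.17 and 0.15. Psat1 at 0.81 and Asns at 0.57 were the farthest apart. In QT7L1 and WT the median differences were -0.13 and 0.07, and Chac1 in QT7L1, at -0.71, was the farthest.

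**Figure D3:**
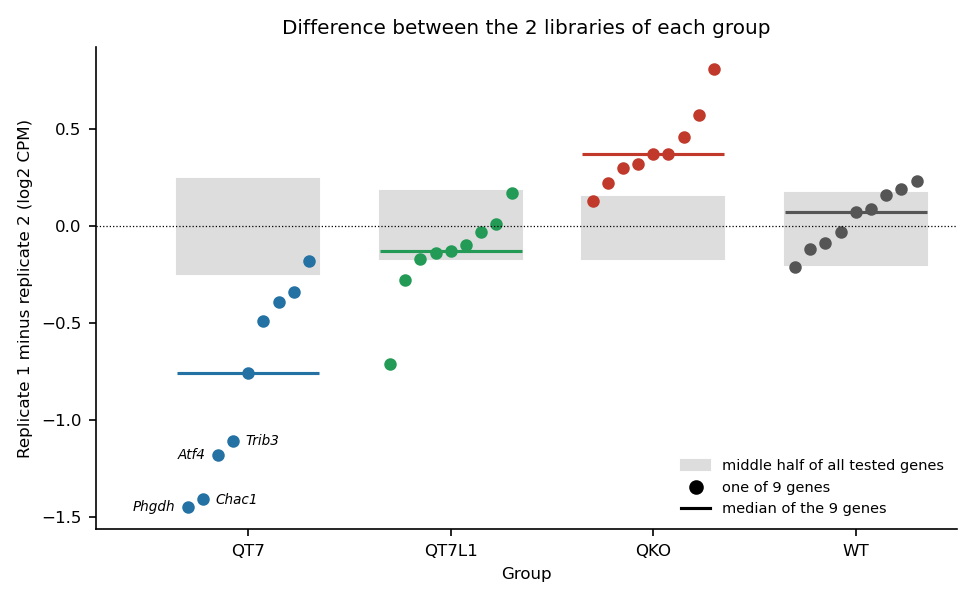
Replicate 1 minus replicate 2 in log2 CPM (vertical axis) for the 9 tested genes (points) in each group, with their median (line) and the range between the quartiles of all tested genes (grey). All QT7 points lie below 0 with a median of -0.76, and all QKO points above 0 with a median of 0.37.

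**Figure D4:**
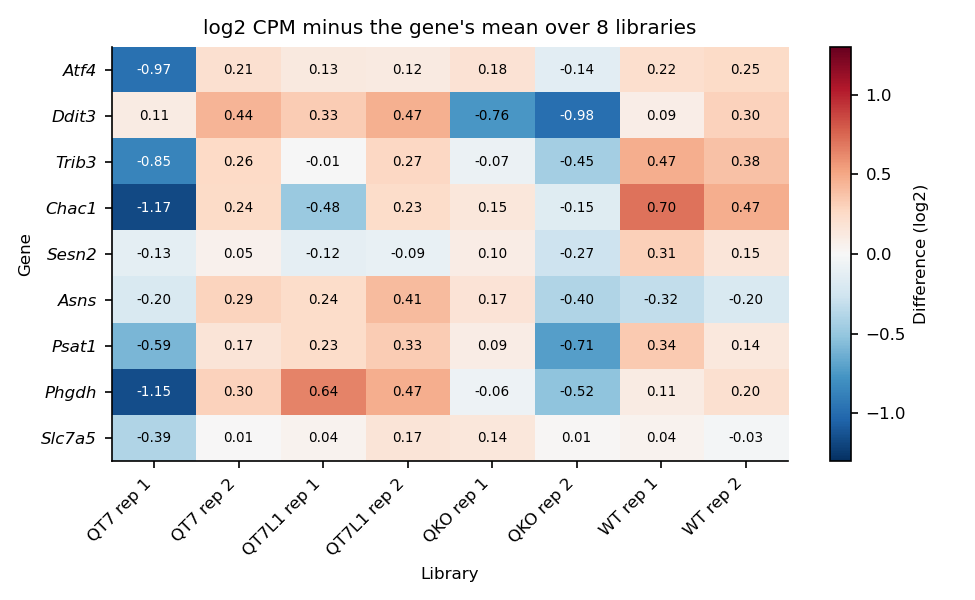
Log2 CPM of the 9 tested genes (rows) in the 8 libraries (columns), each minus the mean of that gene over the 8 libraries; red is above and blue below the mean. QT7 replicate 1 averages -0.59 and QKO replicate 2 averages -0.40 over the 9 genes, and the Ddit3 row is low in both QKO libraries.

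Averaged over the 9 genes, each centred on its own mean, QT7 replicate 1 stood at -0.59 and QT7 replicate 2 at 0.22 (log2). The values were 0.11 and 0.26 in QT7L1, -0.01 and -0.40 in QKO, and 0.22 and 0.19 in WT. QT7 replicate 1 was the lowest library for 5 genes (Atf4, Trib3, Chac1, Phgdh and Slc7a5) and for 16.5% of all tested genes. QKO replicate 2 was the lowest for the other 4 (Ddit3, Sesn2, Asns and Psat1) and for 19.6% of all tested genes. Ddit3 in QT7 replicate 1, at 13.9 CPM, lay within the range of the WT libraries. QT7 replicate 1 also had the highest mitochondrial share, 1.575% against 0.435 to 1.155% in the other 7 libraries, and the lowest summed level of 12 fibroblast markers. That sum was 36.2 and 78.3 CPM in QT7, 44.4 and 57.0 CPM in QT7L1, 150 and 46.8 CPM in QKO, and 125 and 79.0 CPM in WT. Lum was at 0 in every library and Dcn in 5 of 8. The markers did not move together. In QT7 replicate 1, Col1a1 (2.58 CPM), Col1a2 (0.102 CPM) and Tagln (0.638 CPM) were at their lowest of the 8 libraries. In that library Thy1, at 17.4 CPM, was above both WT libraries, and Pdgfrb, at 11.2 CPM, above both QKO libraries. The part of these differences in the levels of the 9 genes was not tested. In bulk RNA, fewer cells with a transcript and less transcript per cell cannot be told apart.

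For most of the genes described here, the direction of QT7 against QKO depended on which QT7 library was used. With QT7 replicate 1 as the single QT7 library, Atf4 was at -1.001 (log2), Chac1 at -1.18 and Phgdh at -0.87 against QKO. Trib3 was then at -0.61, Slc7a5 at -0.46, Psat1 at -0.333, Asns at -0.113, Sesn2 at -0.051 and Ddit3 at 0.98. With QT7 replicate 2 alone, Ddit3 was at 1.32, Phgdh at 0.58, Trib3 at 0.52, Chac1 at 0.248 and Atf4 at 0.19. Atf4, Trib3, Chac1, Phgdh, Psat1, Asns and Sesn2 went in opposite directions with the 2 libraries. Ddit3 was higher and Slc7a5 lower than in QKO with both. The QKO library mattered too. Without QKO replicate 2, Trib3 was at -0.123, Sesn2 at -0.138, Asns at -0.111, Psat1 at -0.26 and Phgdh at -0.192 in QT7 against QKO. These genes were slightly higher in the fit over all 8 libraries. In these fits the lone library is assumed to vary like the libraries of the other groups. Against WT, QT7 replicate 1 alone gave -1.204 for Atf4, -1.284 for Trib3, -1.766 for Chac1, -1.306 for Phgdh and -0.393 for Slc7a5. With QT7 replicate 2 alone, Phgdh was at 0.146 and Slc7a5 at 0.0054 against WT. Over all fits with 1 library left out, Atf4 reached at most -0.013 against WT, Trib3 -0.163 and Chac1 -0.342.

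Across the 8 libraries, 5 of the genes followed Atf4 more closely than the other 3. The correlation (Pearson r of log2 CPM over 8 libraries, a description with no test) of Atf4 was 0.89 with Trib3, 0.88 with Slc7a5, 0.87 with Phgdh, 0.86 with Chac1 and 0.76 with Psat1. It was 0.50 with Sesn2, 0.34 with Asns and 0.11 with Ddit3. The libraries share clones and groups, and QT7 replicate 1 lies at the low end for several of these genes. Of 10268 other genes compared in the same way, those most like the mean of the 9 were Tpm2 (r = 0.981), a tropomyosin, Mthfd1l (0.971), an enzyme of mitochondrial formate production, Efemp2 (0.962), an elastic fibre protein, Slc3a2 (0.956), the heavy chain that pairs with Slc7a5 and Slc7a11, and Zfp523 (0.948), a zinc finger protein. Slc3a2 had 314 and 389 CPM in QT7, 402 and 413 CPM in QT7L1, 372 and 345 CPM in QKO, and 389 and 383 CPM in WT. The genes most like Atf4 were Nt5c (0.983), Rtl6 (0.968), Mthfd2 (0.961), Pdcl3 (0.959) and Gys1 (0.956). Mthfd2, a mitochondrial folate enzyme known as an ATF4 target, had 102 and 178 CPM in QT7, 159 and 174 CPM in QT7L1, 201 and 145 CPM in QKO, and 189 and 191 CPM in WT, again lowest in QT7 replicate 1. Those most like Ddit3, added after its values were seen, were Narf (0.997), Mturn (0.993), Wipi1 (0.993), P4ha1 (0.993) and Egln1 (0.992). P4ha1, a subunit of collagen prolyl hydroxylase, had 89.0 and 111 CPM in QT7, 90.3 and 114 CPM in QT7L1, 33.2 and 30.4 CPM in QKO, and 77.1 and 99.2 CPM in WT.

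The wider pathway was read from 10 related lists with 136 genes, of which 135 were tested. Of these, 49 (36.3%) were called in QKO against WT, against 26.4% of all tested genes. In QT7 against QKO 47 (34.8%) were called against 26.9%, and in QT7L1 against QKO 49 (36.3%) against 29.7%. The lists were drawn up with earlier results of these data known. The list of further ATF4 target and stress genes had 17 tested. In QKO against WT, 10 of its 17 genes were lower and 1 (Rassf1) was higher, where 14.7% of all tested genes were lower and 11.7% higher. In QT7 against QKO and in QT7L1 against QKO, 10 were higher and 1 (Rassf1) was lower, where 14.8% and 15.9% of all tested genes were higher. Sesn3, a sestrin like Sesn2, was at -1.62 ± 0.15 in QKO against WT (log2, SE; edgeR adjusted p = 0.000462). Sqstm1, the autophagy receptor p62, was at -0.75 ± 0.10 (adjusted p = 0.00145). Ero1l, an oxidase of the endoplasmic reticulum, was at -0.87 ± 0.14 (adjusted p = 0.00283), and Vldlr, a lipoprotein receptor, at -2.83 ± 0.44 (adjusted p = 0.00334). Ddit4, an inhibitor of mTORC1, was at 2.43 ± 0.34 in QT7 against QKO (adjusted p = 0.00458), and Vegfa, an angiogenic factor, at 1.68 ± 0.24 in QT7L1 against QKO (adjusted p = 0.00206). Several of these genes, among them Ddit4, Vegfa, Ero1l and Vldlr, are also known targets of the hypoxia-inducible factors, and Sesn3 of the FOXO factors. Fewer of the 17 were called lower in QKO against WT without WT replicate 2 or without QKO replicate 2, and Rassf1 was not called. In QT7 against QKO fewer were called higher without QKO replicate 2, again without Rassf1. Over all tested genes the calls fell in these fits too. Without QT7 replicate 1, slightly more of the 17 were called higher against QKO for QT7 and for QT7L1. Over all genes, fewer were then called for QT7 and more for QT7L1.

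A further list held 11 transcription factors that pair with ATF4 or respond to stress. For QKO against WT their calls were about as frequent as among all genes, of which 26.4% were called. In QKO against WT, 3 of 11 were lower, against 14.7% of all tested genes, and 0 were higher: Nfe2l2, which encodes NRF2, at -0.60 ± 0.10 (log2, SE; edgeR adjusted p = 0.00265), Jdp2 at -1.29 ± 0.30 (0.0129) and Cebpb at -1.42 ± 0.35 (0.0165). Nfe2l2 and Jdp2 were called higher in QT7 than in QKO. Without QKO replicate 2 fewer of the 11 were called there, and fewer of all genes. In QT7L1 against QKO, 4 of 11 were higher (Nfe2l2, Jdp2, Nupr1 and Cebpb) and 0 lower. Of all tested genes, 14.8% were higher in QT7 against QKO and 15.9% in QT7L1 against QKO. The number of the 11 called in QKO against WT fell without WT replicate 2 or without QKO replicate 2, as did the number over all genes. Without QKO replicate 1 more of the 11 were called and fewer of all genes. In QT7L1 against QKO both numbers fell without QKO replicate 2 or without either QT7L1 library.

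Upstream of ATF4, calls in QKO against WT went in the higher direction in the fit over all 8 libraries. In some fits with a library left out, a gene of this list was called lower too. The list of eIF2 and eIF2B subunits, eIF2alpha kinases and phosphatase subunits had 7 of 12 genes higher and 0 lower in QKO against WT, where 11.7% of all tested genes were higher and 14.7% lower. Named after their values were seen, 5 of the 7 are Eif2b1 to Eif2b5, the subunits of the exchange factor that recycles eIF2. The others are Eif2s1, eIF2alpha itself, and the kinase Eif2ak2. Eif2b4 had 61.2 and 61.9 CPM in QT7, 67.8 and 60.2 CPM in QT7L1, 109 and 105 CPM in QKO, and 59.7 and 52.7 CPM in WT. Its level was highest in both QKO libraries without overlap, and it was at 0.93 ± 0.11 on the log2 scale in QKO against WT (SE; edgeR adjusted p = 0.000805). In QT7 against QKO, 7 of the 12 were lower and 0 higher, against 12.1% of all tested genes lower. In QT7L1 against QKO, 6 were lower, against 13.9% of all tested genes, and 1, the amino acid sensing kinase Eif2ak4 (GCN2), was higher at 0.51 ± 0.12 (adjusted p = 0.0108). Fewer genes of this list were called higher in QKO against WT when any WT or QKO library was left out. In QT7 against QKO fewer were called lower without either QKO library. In QT7L1 against QKO fewer were called lower when any QKO or QT7L1 library was left out. Over all tested genes the calls in these directions fell in the same fits.

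The remaining lists were mixed, and their counts stand beside 11.7% of all tested genes higher and 14.7% lower in QKO against WT, and 12.1% lower in QT7 against QKO. Calls of the synthetase, other enzyme and NRF2 lists in QKO against WT were at or below the share of all genes. Of 21 cytosolic aminoacyl-tRNA synthetase and tRNA export genes, 2 were higher (Farsa and Xpot) and 1 lower (Sars) in QKO against WT, and 8 were lower in QT7 against QKO, among them Farsa at -0.41 ± 0.10 (edgeR adjusted p = 0.0114). Fewer of the 21 were called lower in QT7 against QKO without QT7 replicate 1, either QKO library or either QT7L1 library. The same held over all tested genes. Of 11 further serine, glycine and one-carbon enzymes, 4 were higher and 2 lower in QKO against WT. Gldc, of the glycine cleavage system, was at -0.84 ± 0.13 (adjusted p = 0.00199). Of 13 other amino acid enzymes, 1 was higher, Bcat1 at 0.84 ± 0.12 (adjusted p = 0.00177), and 2 were lower, among them Gpt2, an alanine aminotransferase, at -0.48 ± 0.14 (adjusted p = 0.0316). Of 13 other amino acid transporters, 3 were lower and 1 higher: Slc16a10, for aromatic amino acids, at -2.08 ± 0.27 (adjusted p = 0.0012), Slc1a4, for alanine, serine and cysteine, at -1.26 ± 0.24 (adjusted p = 0.00659), Slc43a1 at -0.92 ± 0.25 (adjusted p = 0.0239) and the cationic transporter Slc7a3 at 0.50 ± 0.15 (adjusted p = 0.0376). Of 17 chaperones of the endoplasmic reticulum, 5 were higher and 1 lower. Of 12 NRF2 targets 1 was higher and 2 lower, and of 8 mitochondrial stress genes 3 were higher and 0 lower, led by Hspd1 at 0.57 ± 0.11 (adjusted p = 0.00553). Fewer genes of each of these lists were called in QKO against WT without WT replicate 2 or without QKO replicate 2. Without QT7 replicate 1 more were called in each list except the one-carbon enzymes, whose number stayed. The number called over all tested genes likewise fell without WT replicate 2 or QKO replicate 2 and rose without QT7 replicate 1.

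Between the rescued lines and WT, and between the rescued lines, edgeR called the lists about as often as all genes. In QT7 against WT, 7 of 135 genes (5.19%) were called, against 4.62% of all tested genes: Amt, Oat, Sesn1 and Me1 were higher and Glul, Sesn3 and Hmox1 lower. In QT7L1 against WT and in QT7 against QT7L1, 0 of 135 were called by edgeR, against 0.745% and 0.00606% of all tested genes. An unadjusted p under 0.05 was reached by 19 and 13 of the 135, against 15.4% and 11.1% of all tested genes. DESeq2 called 1 gene of the 135 in each of these 2 comparisons, against 4.0% and 1.41% of all genes. These were an NRF2 target that was lower in QT7L1 against WT and an NRF2 target that was higher in QT7 against QT7L1.

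**Figure D5:**
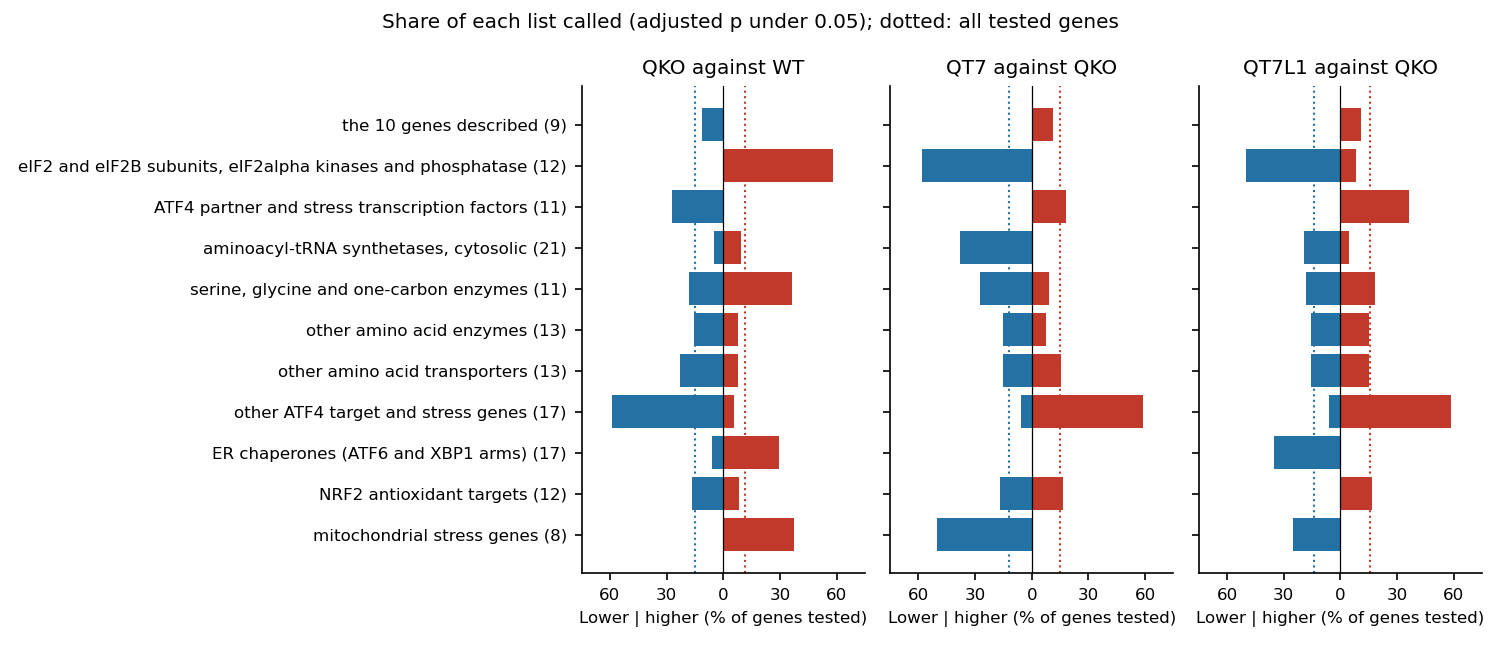
Share of each list called higher (red, to the right) or lower (blue, to the left) in percent of its tested genes, whose number stands in brackets, in 3 comparisons that share the QKO libraries. Dotted lines mark the shares of all tested genes; of the 9 tested genes described here 1 was called in each panel, and of the 17 further ATF4 target and stress genes 10 were lower in QKO against WT.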

How the data were processed

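RNA was sequenced from 8 libraries of 4 groups, for which 250 ng of RNA entered a stranded mRNA kit, per the labels. Per the submitters' processing notes, reads were handled with bcl2fastq 1.8.4, STAR 2.4.0f1 (mm10, GRCm38), HTSeq and DESeq2 2.1.8.3. The sources used here give neither the strand setting of the counting nor how it treated reads with several positions. Per library, the authors deposited whole counts per gene. The authors' deposited comparison tables hold a mean normalised signal, a log2 fold change with its standard error, a test score, and a p-value with its adjusted value. Those tables served to map gene names and for 1 comparison of calls.

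Groups follow the sample titles. Counts were fitted in edgeR 4.0.16 (R 4.3.3, limma 3.58.1): filterByExpr (minimum count 10, 16515 genes kept), TMM factors of 0.955 to 1.028, 1 robust quasi-likelihood model over 8 libraries with 4 residual degrees of freedom, 2-sided F tests and Benjamini-Hochberg adjustment over all tested genes. Fold changes are the group named before over the group named after, and standard errors were derived from the fold change and F. Log2 CPM used a prior count of 2. Exon lengths and coordinates came from GENCODE M21. The fit was tested on simulated counts. Alternatives were DESeq2 1.42.0 size factors and Wald test, no count filter, the compared groups alone, a replicate block and each library left out. Intervals and counts cover the spread between these libraries.

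The 10 genes, the lists and the rule for names were chosen with earlier results of these data known. By that rule all 10 genes are named, up to 4 called genes with the smallest adjusted p per list and comparison, and the 5 genes closest by correlation. Genes named outside it belong to counts of 5 or fewer or are said to have been named after their values were seen. A few genes covered by this rule are left out here.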

Additional observations from a re-analysis of the deposited data

How the results depend on the processing

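Of 702 recomputed fold changes of the 9 tested genes, 616 kept their direction and their side of the threshold, 51 became called, 0 called ones lost the call and 35 changed sign. Of those 35, 33 stayed above the threshold, and the other 2 are Trib3 and Phgdh in QT7 against QKO with QT7 replicate 1 alone. Ddit3 stayed called against QKO and in QKO against WT throughout. Phgdh in QT7 against QKO, at 0.02, came to -8.9e-05 with DESeq2 size factors, -0.0023 with the DESeq2 Wald test and -0.044 with the replicate block.

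With single libraries left out, these log2 fold changes changed sign within their ranges. In QKO against WT, Asns ran from -0.148 to 0.427 and Slc7a5 from -0.0055 to 0.129. In QT7 against QKO, Atf4 ran from -1.001 to 0.189, Trib3 from -0.605 to 0.515, Chac1 from -1.18 to 0.248, Sesn2 from -0.138 to 0.237, Asns from -0.113 to 0.464, Psat1 from -0.333 to 0.549 and Phgdh from -0.874 to 0.578. In QT7L1 against QKO, Atf4 ran from -0.057 to 0.271, Chac1 from -0.48 to 0.238, Sesn2 from -0.202 to 0.173 and Slc7a5 from -0.031 to 0.104. In QT7 against WT, Ddit3 ran from -0.09 to 0.251, Phgdh from -1.31 to 0.146 and Slc7a5 from -0.393 to 0.0054. In QT7L1 against WT, Psat1 ran from -0.051 to 0.142. In QT7 against QT7L1, Atf4 ran from -1.10 to 0.089, Ddit3 from -0.297 to 0.045, Trib3 from -0.998 to 0.123, Chac1 from -1.10 to 0.326 and Sesn2 from -0.026 to 0.159.

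The number of the 10 genes called depended on the filter and on the libraries that set the spread; the cause was not tested. Without the count filter, where Slc7a11 was tested too, 6 were called in QKO against WT, all lower, and 5 in QT7L1 against QKO, all higher. Of all genes, 5262 and 5749 were called there, against 4366 and 4912 in the main fit. Without the filter 7 were also called in QT7 against WT (1 higher, 6 lower). In QT7L1 against WT 4 were called (2 higher, 2 lower), and in QT7 against QT7L1 3, all lower. Of all genes, 2203, 1248 and 1030 were called in those 3 comparisons. The DESeq2 Wald test called 2 in QKO against WT, against 27.9% of all genes, and 1 in QT7L1 against WT, against 4.0%. With the compared groups alone, 3 were called in QKO against WT, 2 in QT7L1 against QKO and 2 in QT7L1 against WT. Of all genes, 5135, 6209 and 614 were then called. With single libraries left out the number called also moved, most without QT7 replicate 2. The calls then added in QT7 against QKO, QT7 against WT and QT7 against QT7L1 were all lower. Over all genes, the number called in that fit rose in QT7 against WT and in QT7 against QT7L1, and did not rise in QT7 against QKO.

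Of all tested genes, 763 were called in QT7 against WT, 123 in QT7L1 against WT and 1 in QT7 against QT7L1. These counts became 2203, 1248 and 1030 without the filter, 1288, 575 and 236 with the DESeq2 Wald test, and 117, 614 and 20 with the compared groups alone. With single libraries left out they ran from 52 to 2023, 0 to 517 and 0 to 1564, while the counts of QKO against WT, QT7 against QKO and QT7L1 against QKO ran from 1272 to 5497, 1432 to 4355 and 1704 to 5971. Replicate numbers are clone letters and do not pair libraries across groups: correlations of the replicate difference between groups ran from -0.205 to 0.164. With a replicate block 2 genes were called in QT7 against QT7L1, and no call among the 9 genes changed. Depth limits Slc7a11, at 1 to 23 counts a library, and 2 libraries a group limit every comparison.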
